A study of Mus musculus with 4 samples.

Results

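The Irx and Pou3f genes are 10 mouse homeobox genes: Irx1 to Irx6 of the Iroquois family and Pou3f1 to Pou3f4 of the POU class 3 family. The choice was by name, with earlier results of these data known. The 10 genes were looked up by gene symbol in 3 lists of genes from a Foxp1 chromatin immunoprecipitation sequencing (ChIP-seq) study of newborn mouse kidney. All 10 are among the 21900 protein-coding genes of the RefSeq table for GRCm38.p6 that served as the comparison. The study set neonatal littermate control mice beside Foxp1KspKO mice, whose name joins the gene for the forkhead transcription factor Foxp1 to Ksp-cadherin, a protein of renal tubule epithelium from whose promoter Cre recombinase is expressed in such mice, so other cells of a sample would keep the gene. Each genotype had 1 ChIP library and 1 input library of unselected chromatin, from kidney tubular cells collected by collagenase digestion and sieving, and whether a library pooled several animals is not given in the sources used here. The labels give rabbit IgG as the antibody of the control ChIP and a Foxp1 antibody as that of the Foxp1KspKO ChIP, although the descriptions of both libraries carry the prefix FoxP1. The ChIP libraries are called the control and the knockout library below, by genotype, and which antibody lay behind each was not settled.

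Iroquois genes encode homeodomain proteins of the TALE class and lie in a pair of gene clusters, Irx1, Irx2 and Irx4 in the first and Irx3, Irx5 and Irx6 in the second. POU class 3 genes encode proteins with a POU-specific domain beside a homeodomain and mostly lack introns. In the developing nephron, Irx1, Irx2 and Irx3 mark the intermediate part of the tubule, which in the frog pronephros depends on Irx3, and Pou3f3, also called Brn1, is needed in the mouse for the loop of Henle, distal tubule and macula densa to form. A listing in these data is 1 p-value for a gene, under 0.05, as the authors computed it. It carries no position, no fold enrichment, no read count and no direction, so it says neither where in or near the gene the signal lay nor how strong it was, and it is not a measure of expression.

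The control list held 6 of the 10 genes, Irx1, Irx2, Irx3, Pou3f1, Pou3f2 and Pou3f4, against 29.0% of all protein-coding genes. The knockout list held 4 of them, Irx3, Pou3f1, Pou3f2 and Pou3f4, against 20.9%. All 4 were also in the control list, so 4 of the 10 genes were in both lists, against 13.2% of all protein-coding genes. Of the 4572 protein-coding genes in the knockout list, 2900 were also in the control list. Irx1 and Irx2 were also the 2 members in the third list, which the authors named as unique to the control library, against 15.1%. Of the 3482 genes in that list, 116 (3.33%) were also in the knockout list, so a place in it does not by itself mean that a gene had no knockout value. Irx4, Irx5, Irx6 and Pou3f3 were in none of the 3 lists. By family, the control list had 3 of 6 Irx genes and 3 of 4 Pou3f genes, and the knockout list had 1 of 6 and 3 of 4. This division depended on the limit. With deposited p-values under 0.001, the control list kept Irx3, Pou3f1 and Pou3f2, and the knockout list kept Irx3 and Pou3f2. With 1 library per genotype and members this few, no test of these counts against the background or between the families was made. With unlisted genes ranked last, the fifth and sixth control values of the 10 were 0.00644 and 0.0138 in the authors' deposited table, while the median protein-coding gene was not listed.

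**Figure D1:**
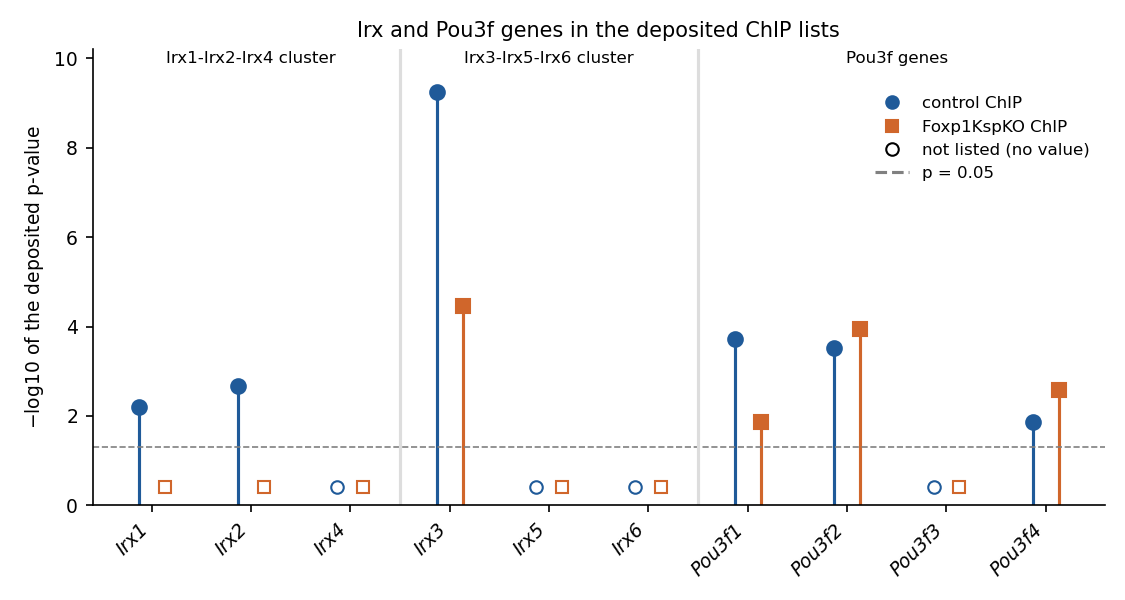
The y axis gives −log10 of the deposited p-value of each gene, with circles for the control library and squares for the knockout library, 1 library each. Open symbols near the axis have no value because the gene was not listed, and the dashed line marks the listing limit. Irx3 in the control library stands highest at 9.24, and Irx1 and Irx2 have a value for the control library alone.

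Irx3 had the lowest p-value of the 10 genes in each library. It is a gene of 3144 bp on chromosome 8 (91798511 to 91801654, NCBI gene 16373), and the authors' deposited table gave it 5.73e-10 in the control library and 3.57e-05 in the knockout library. Its p-value was at rank 590 of the 6799 control genes, the lowest 8.68%, and at rank 672 of the 4953 knockout genes, the lowest 13.6%. On the −log10 scale the control value was 4.79 higher than the knockout value. A difference of at least this size was found for 623 of the 3086 genes in both lists (20.2%), so Irx3 lay in the upper part of a broad distribution whose median was 1.28. Exactly the same control p-value was carried by 2 other genes. The authors did not place Irx3 in their unique list.

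The genes most like Irx3 in both p-values, by straight-line distance on the −log10 scale over the other 3085 genes in both lists, were Zeb2, Ncam1 and Zic2. Zeb2 encodes a zinc finger repressor of epithelial genes and had 4.19e-10 and 2.27e-05 in the control and knockout library of the authors' deposited table, a distance of 0.24. Ncam1, the neural cell adhesion molecule, had 8.97e-10 and 2.5e-05 in the authors' deposited table. Zic2, a zinc finger gene of neural patterning, had 5.27e-10 and 6.36e-05 in the authors' deposited table. Both lay at a distance of 0.25. The likeness covers only 2 values per gene from single libraries.

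The promoter of Irx3, taken from RefSeq (250 bases before to 50 after the gene start, GRCm38.p6), is shown because Irx3 had the lowest p-value of the 10 genes. It lies on the minus strand, and capitals mark CpG dinucleotides, the pairs at which vertebrate DNA is methylated.
Irx3, chr8:91801605-91801904: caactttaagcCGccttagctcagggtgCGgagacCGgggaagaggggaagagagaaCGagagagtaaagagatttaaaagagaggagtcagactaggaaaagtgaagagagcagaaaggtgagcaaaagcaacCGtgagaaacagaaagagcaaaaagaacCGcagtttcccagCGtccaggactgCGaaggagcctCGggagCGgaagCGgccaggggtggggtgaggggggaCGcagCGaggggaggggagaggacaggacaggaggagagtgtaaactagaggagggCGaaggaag
The window held 14 CpG, near the median of 13 over the 17492 protein-coding promoters in the table, with a G+C content of 56.0% against a median of 56.3%. Since the lists hold no positions, whether the ChIP signal assigned to Irx3 fell in this window is unknown.

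Irx1 and Irx2, neighbours in the first Irx cluster on chromosome 13, were listed for the control library alone, with p-values far weaker than that of Irx3. Irx2 (72624430 to 72634196, NCBI gene 16372) had a control p-value of 0.00212 in the authors' deposited table, at rank 3706 of 6799, the lowest 54.5%. Irx1 (71958232 to 71963723, NCBI gene 16371) had 0.00644 in the authors' deposited table, at rank 4516, the lowest 66.4%. Both lay above the median control p-value of 0.00116, in the weaker part of the list. The absence of both genes from the knockout list says only that 1 library gave no listing, and is not a measured loss of signal. Irx4 (73259589 to 73269622), the third gene of the cluster and in the heart a gene of the ventricles, was not listed in either library.

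The promoters of Irx2 and Irx4 are shown as a listed and an unlisted gene of the same cluster, both on the plus strand and with CpG dinucleotides in capitals. In both genes the start used for the promoter lies inside the span of the gene in the RefSeq table.
Irx2, chr13:72628570-72628869: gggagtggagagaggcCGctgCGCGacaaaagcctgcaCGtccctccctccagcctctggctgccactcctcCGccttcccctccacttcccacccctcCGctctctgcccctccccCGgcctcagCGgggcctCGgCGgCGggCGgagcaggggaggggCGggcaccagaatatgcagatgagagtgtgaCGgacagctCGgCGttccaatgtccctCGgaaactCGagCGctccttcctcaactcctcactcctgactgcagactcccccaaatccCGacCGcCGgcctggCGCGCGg
Irx4, chr13:73260247-73260546: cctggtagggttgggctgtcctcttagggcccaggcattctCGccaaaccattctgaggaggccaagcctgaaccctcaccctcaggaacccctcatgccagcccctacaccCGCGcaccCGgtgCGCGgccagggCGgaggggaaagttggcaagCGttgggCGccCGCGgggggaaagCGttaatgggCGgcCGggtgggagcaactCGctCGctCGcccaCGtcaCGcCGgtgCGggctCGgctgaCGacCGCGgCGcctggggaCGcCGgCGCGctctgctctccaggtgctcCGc
The windows are alike in composition: Irx2 had 25 CpG and 69.0% G+C, and Irx4 had 31 CpG and 70.7% G+C. Only 24.5% of protein-coding promoters had as many CpG as Irx2 or more, and 13.4% as many as Irx4 or more. Among all genes with a promoter in the table, a count chosen after the values were seen, the share listed for the control library was 26.6% in the decile with the fewest CpG (0 to 1), lowest at 17.4% in the decile with 5 to 8 and highest at 44.7% in the decile with the most (33 to 65). In the knockout list it was 16.9% in the decile with the fewest, lowest at 13.4% in the next (1 to 3) and 29.1% in the decile with the most. The control share thus fell up to the decile with 5 to 8 CpG and rose at each step after it. The knockout share rose from the decile with 1 to 3 CpG on, apart from a step from 27.0% to 26.7%. The decile of Irx2 (22 to 27 CpG) had 33.2% in the control list and 27.0% in the knockout list. That of Irx4 (27 to 33) had 37.8% and 26.7%. The part of CpG content in the listing of Irx and Pou3f genes was not tested.

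Irx5 (chromosome 8, 92357796 to 92361456) and Irx6 (92674289 to 92680956), the other genes of the cluster of Irx3, were not listed in either library. Irx5 is known from heart, limb and retina and Irx6 from retina. The cluster of Irx1, Irx2 and Irx4 spanned 1311391 bp and held 12 other annotated genes between its outer members, 8 of them long noncoding RNA (lncRNA) genes and none protein-coding. The cluster of Irx3, Irx5 and Irx6 spanned 882446 bp and held 8 other genes, 7 of them lncRNA genes. Neither the 12 nor the 8 intervening genes were listed in either library, including Crnde, whose end is 1676 bp from Irx5, and Irx3os, 1682 bp from Irx3. Such absence is common, since the control list held 2.35% of all lncRNA genes and the knockout list 1.92%, and whether the annotation behind the lists held these genes is not known. The protein-coding genes that flank the clusters, Ndufs6 beyond Irx4, Fto beyond Irx3 and Mmp2 beyond Irx6, were not listed either, and Adamts16, a protease gene 1116387 bp from Irx1, had a control p-value of 0.00564 in the authors' deposited table and no knockout value.

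**Figure D2:**
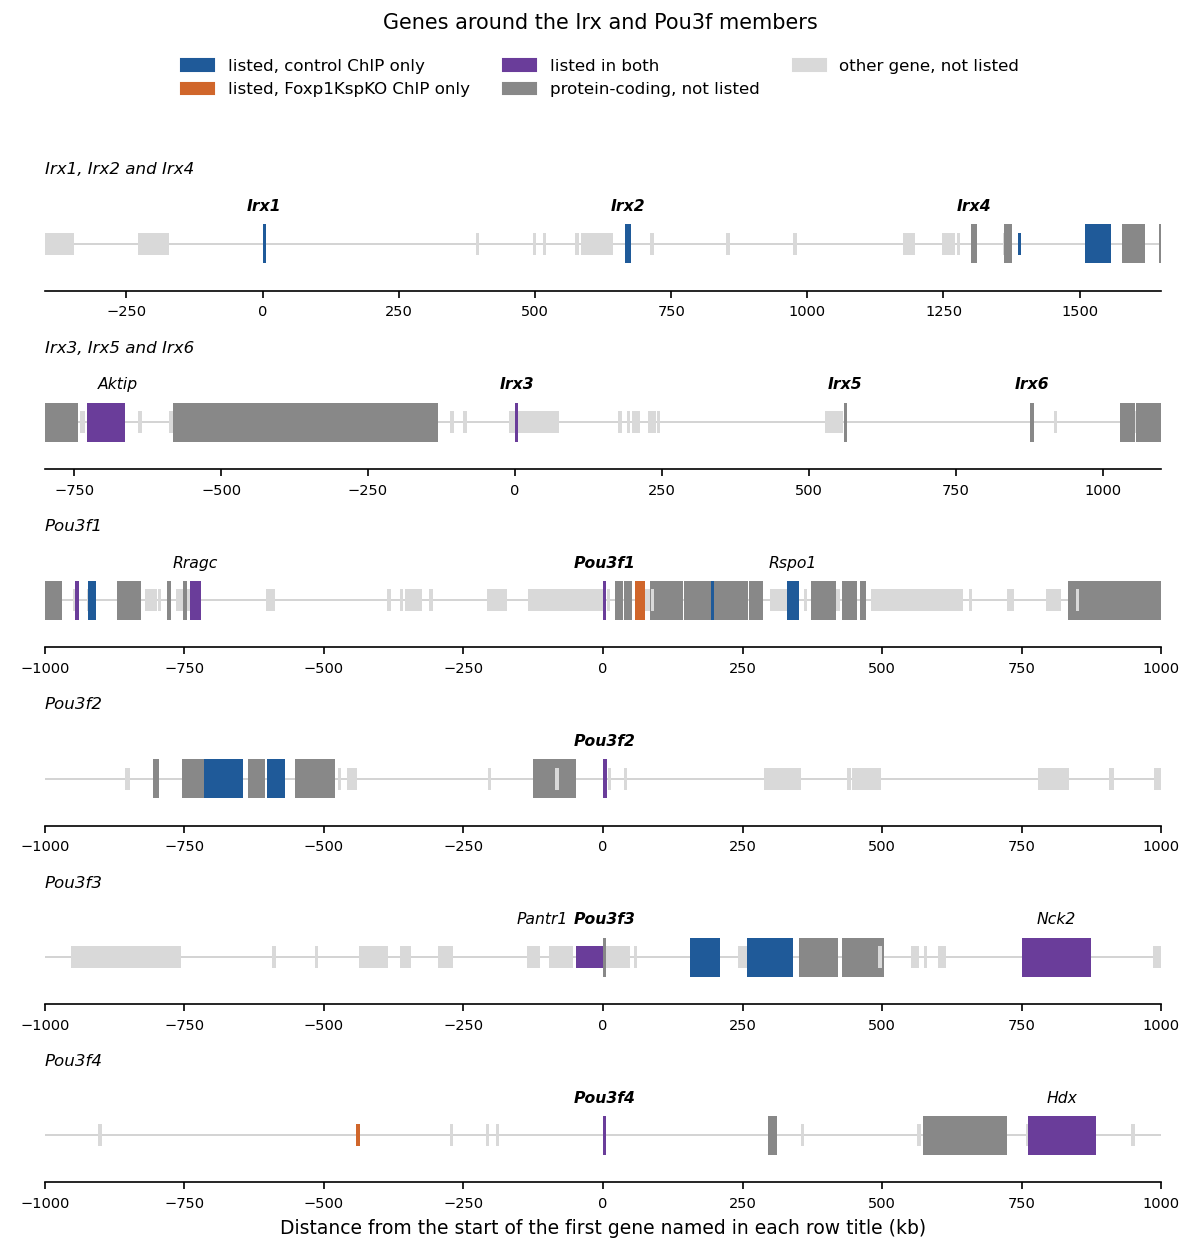
Genes are drawn to scale by distance in kb from the start of the first gene in each row title, and genes shorter than 6 kb are widened to that size. Blue, orange and purple mark genes listed for the control library only, the knockout library only and both, and grey marks unlisted genes, taller where protein-coding. Within both Irx clusters only Irx genes are coloured, and the lncRNA gene Pantr1 beside the unlisted Pou3f3 is purple.

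Among the Pou3f genes, Pou3f1, Pou3f2 and Pou3f4 were listed for both libraries. After a Benjamini-Hochberg adjustment of the p-values in the authors' deposited table over all protein-coding genes, Pou3f2 alone of them stayed under 0.05 in both, as Pou3f4 had an adjusted p of 0.0617 in the control library and Pou3f1 one of 0.0978 in the knockout library. Pou3f1, also called Oct6 or SCIP and known from Schwann cells, lies on chromosome 4 (124657646 to 124660655, NCBI gene 18991). It had a control p-value of 1.95e-04 and a knockout p-value of 0.0136 in the authors' deposited table, a −log10 difference of 1.85 towards the control library. Pou3f2, also called Brn2 and known from neurons, lies on the same chromosome at 22482095 to 22488366 (NCBI gene 18992), far from Pou3f1. The authors' deposited table gave it 3.05e-04 in the control library and 1.15e-04 in the knockout library. Pou3f4 (X, 110814379 to 110819108, NCBI gene 18994), whose human counterpart is the gene of an X-linked deafness, had a control p-value of 0.0138 and a knockout p-value of 0.00265 in the authors' deposited table.

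Pou3f2 and Pou3f4 thus had the lower p-value in the knockout library, and Irx3 and Pou3f1 had it in the control library. Over all 3086 genes in both lists, 28.6% had the lower p-value in the knockout library. The control minus knockout differences on the −log10 scale were −0.42 for Pou3f2 and −0.72 for Pou3f4. Both lay below the lower quartile of shared genes, −0.15. A difference as low as that of Pou3f2 or lower was found for 20.9% of shared genes and as low as that of Pou3f4 for 16.9%. The median difference over the 4 shared members was 0.71, against 1.28 over all shared genes. A deeper or more enriched library gives lower p-values, and the depth of these libraries is unknown, so the sign of a difference does not say which library held more signal at a gene. Within its own list Pou3f2 was at rank 2766 of 6799 for the control library and 880 of 4953 for the knockout library, and Pou3f4 at 5223 and 2028.

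**Figure D3:**
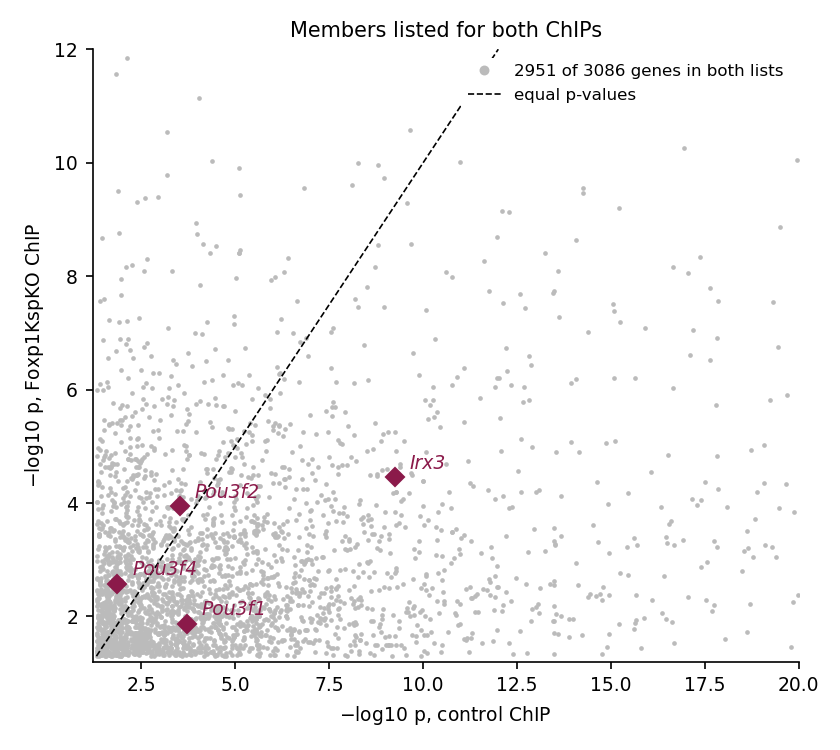
Each grey point is 1 of 2951 of the 3086 genes in both lists, at its −log10 p in the control library (x) and the knockout library (y), and genes beyond the axis limits are not drawn. Diamonds mark the 4 members in both lists, and the dashed line marks equal p-values. Irx3 and Pou3f1 lie below the line and Pou3f2 and Pou3f4 above it.

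**Figure D4:**
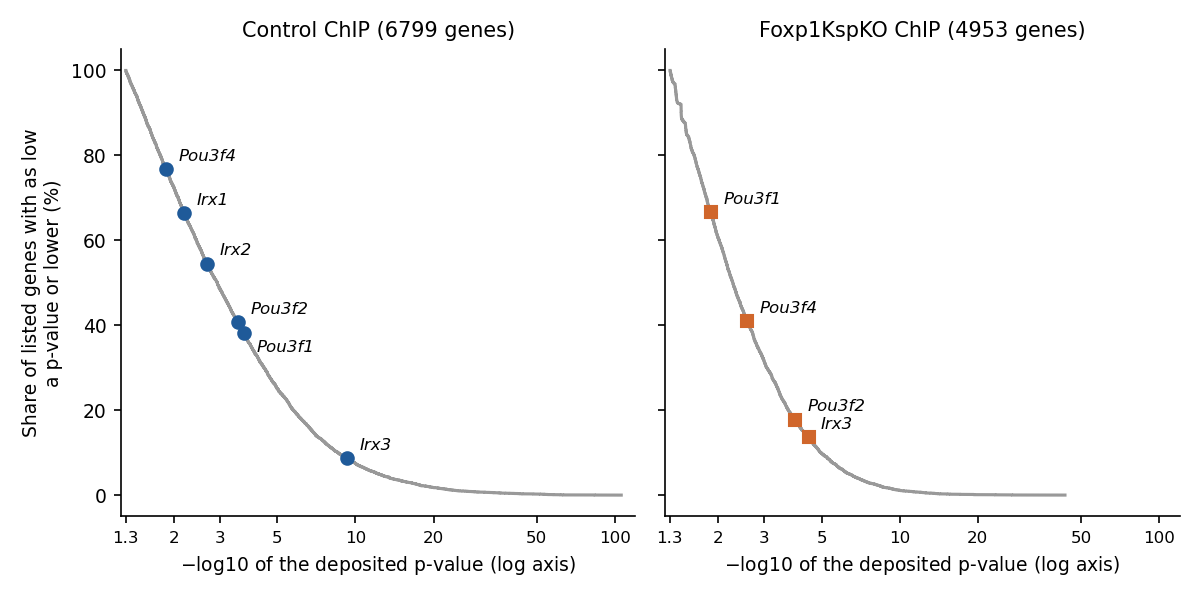
The curves give, for each ChIP, the share of listed genes (y, in %) with a p-value as low as the value on the x axis or lower, and the symbols mark the listed Irx and Pou3f genes. Irx3 stands in the lowest 8.68% of control p-values and the lowest 13.6% of knockout p-values. Pou3f2 stands in the lowest 17.8% of knockout p-values, and all other values lie further into each list.

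Pou3f3, the POU gene with the best known part in the mouse nephron, was not listed in either library. It lies on chromosome 1 (42695768 to 42700210), and the lncRNA gene Pantr1 ends 943 bp before it. Pantr1 had a control p-value of 3.02e-06 and a knockout p-value of 0.0173 in the authors' deposited table. How reads were assigned between neighbouring genes is not given in the lists. Another lncRNA gene, Gm46091, overlaps Pou3f3 in the RefSeq table and was not listed. Mrps9, a mitochondrial ribosomal protein gene and the nearest protein-coding gene after Pou3f3, had a control p-value of 0.00990 in the authors' deposited table and no knockout value.

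The promoters of Pou3f2 and Pou3f3 are shown as a listed and an unlisted Pou3f gene. For Pou3f2, on the minus strand, capitals mark CpG dinucleotides, of which it had 24. For Pou3f3, on the plus strand, capitals mark a match to a forkhead-type motif, and it held 18 CpG.
Pou3f2, chr4:22488317-22488616: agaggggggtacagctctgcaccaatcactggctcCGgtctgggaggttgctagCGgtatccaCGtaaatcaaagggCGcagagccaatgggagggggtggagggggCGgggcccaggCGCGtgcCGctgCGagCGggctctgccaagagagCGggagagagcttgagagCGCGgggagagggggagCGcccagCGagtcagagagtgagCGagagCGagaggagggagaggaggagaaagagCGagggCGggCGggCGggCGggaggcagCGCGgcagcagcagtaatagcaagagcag
Pou3f3, chr1:42695518-42695817: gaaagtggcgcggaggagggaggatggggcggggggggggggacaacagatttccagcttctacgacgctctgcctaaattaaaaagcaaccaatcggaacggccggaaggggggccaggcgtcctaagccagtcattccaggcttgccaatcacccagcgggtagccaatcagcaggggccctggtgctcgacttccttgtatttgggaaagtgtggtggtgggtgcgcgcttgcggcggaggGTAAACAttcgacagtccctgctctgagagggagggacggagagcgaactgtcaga
A search on both strands used the letters TGTTTAC, then the variant TGTTTGC, then the A-rich TATTTAT and finally the variant TATTTAC, whose matches may overlap each other. The table held a promoter for 6 of the 10 genes, Irx2, Irx3, Irx4, Pou3f2, Pou3f3 and Pou3f4. Of these only Pou3f3 had a match, to TGTTTAC read on the minus strand, starting at base 245 of the window, just before and across the gene start. That motif was present in 2.94% of the 17492 promoters. The share was 4.56% for TGTTTGC, 4.96% for TATTTAT, 2.63% for TATTTAC and 13.9% for any of the 4. Over all these genes, the control list held 28.6% of those with a match and 28.9% of those without, and the knockout list 19.1% and 21.1%.

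The 10 genes were short and lay in wide intervals between their protein-coding neighbours, which the choice by name did not use. Their lengths ran from 3010 bp (Pou3f1) to 10034 bp (Irx4), with a median of 5111 bp against 17169 bp over all protein-coding genes placed on a chromosome. The distances to the nearest protein-coding gene on each side summed to a median of 1077537 bp, against 47994 bp for all, and ranged from 459167 bp for Irx6 to 2056089 bp for Pou3f2. Some had a neighbour close by on 1 side, as Pou3f1 had Utp11 at 17577 bp, Pou3f2 had Fbxl4 at 48004 bp and Irx4 had Ndufs6 at 50254 bp. All 10 were in the decile of genes with the longest summed distance, which began at 386158 bp. The share of genes listed varied with both measures. In the control library it was 38.8% in that most isolated decile and 20.5% in the least isolated, and 22.8% in the length class of 4168 to 7384 bp that held Irx1, Irx6, Pou3f2, Pou3f3 and Pou3f4. In the knockout library the most and least isolated deciles had 23.8% and 20.7%. Set beside the most isolated decile, the 6 of 10 members in the control list compare with 38.8% rather than 29.0%. Set beside genes in the length classes of the members, they compare with 22.6%. The part of gene spacing or gene length in the listing of the members was not tested.

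Pooled over the 10 genes, the other protein-coding genes nearby had shares below those of all protein-coding genes, but the shares varied between genes. Within 1000000 bp of the 10 genes, a distance chosen after the values were seen, lay 78 other protein-coding genes, of which the control list held 16 (20.5%) and the knockout list 11 (14.1%). In the control list the share was above 29.0% near Irx3 (2 of 5), Pou3f3 (3 of 6) and Pou3f4 (1 of 3), and in the knockout list it was above 20.9% near Irx3 (2 of 5) and Pou3f4 (1 of 3). Among these genes, the authors' deposited table gave the lowest p-values of the control library to the adaptor gene Nck2 near Pou3f3 (1.58e-20) and to Rspo1, a secreted enhancer of Wnt signalling near Pou3f1 (1.49e-16). Rragc, a lysosomal GTPase gene that is the nearest protein-coding gene before Pou3f1, had a control p-value of 3.55e-10 and a knockout p-value of 0.00268 in the authors' deposited table. The only protein-coding gene within that distance of Irx1 was Irx2.

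The families and pathways around these genes gave a mixed picture. All protein-coding genes had shares of 29.0% in the control list and 20.9% in the knockout list. Near those shares, the control library listed 4 (36.4%) of the 11 other POU genes and the knockout library 2 (18.2%). They were led by Pou2f1, the broadly expressed Oct1, with 2.04e-17 and 5.52e-04 in the authors' deposited table, while the sensory neuron gene Pou4f1 had 0.00278 and 0.0165 there. Of the 12 other TALE homeobox genes, the control library listed 7 and the knockout library 6. In the authors' deposited table, Pbx2 had a control p-value of 5.56e-42, the lowest of them, and Meis1 had 7.16e-18, and both genes encode cofactors of Hox proteins. For the knockout library, the authors' deposited table gave Meis2 4.12e-08 and Pbx2 7.62e-07, and Meis1 had no value. For all 5 TALE genes in both lists, the control p-value was the lower. Among all 3086 genes in both lists that was the common direction, since 28.6% had the lower p-value in the knockout library.

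**Figure D5:**
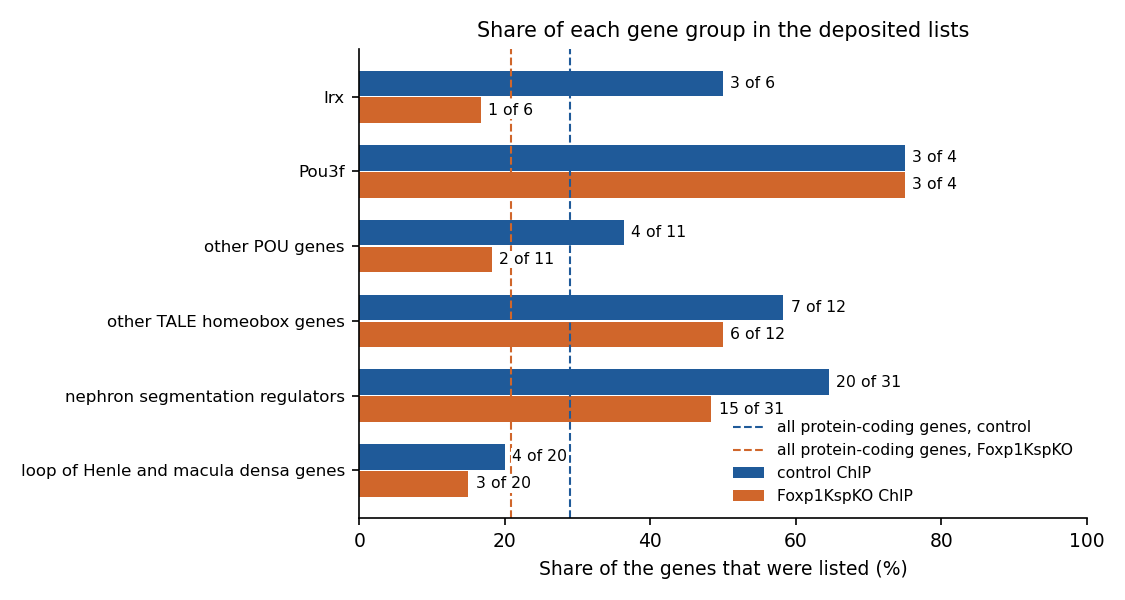
Bars give the share of each gene group (in %) in the control list (blue) and the knockout list (orange), with counts beside them, and dashed lines give the shares of all protein-coding genes, 29.0% and 20.9%. The Pou3f bars are equal at 3 of 4, and the loop of Henle and macula densa bars lie left of the dashed lines.

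Of 31 regulators of nephron segmentation, the control library listed 20 (64.5%) and the knockout library 15 (48.4%), with 14 in both. The shares of all protein-coding genes were 29.0%, 20.9% and 13.2%. The gene lists compared here were chosen with earlier results of these data known. By the authors' deposited table, control p-values were lowest for Pax2, a regulator of nephron progenitors and duct (4.48e-28), and for the Notch effectors Hes1 (8.51e-25) and Rbpj (1.94e-19). The lowest knockout p-values there were those of the Notch ligand gene Jag1 (3.15e-14) and of Tfap2a (3.06e-07). Of 20 genes that the mature loop of Henle and macula densa express, 4 (20.0%) were in the control list, 3 (15.0%) in the knockout list and none in both. The control genes with the lowest p-values in the authors' deposited table were Egf (0.00346), the Wnt and BMP antagonist gene Sostdc1 (0.0294) and Ptgs2 (0.0422), an enzyme gene of prostaglandin synthesis. In the knockout library they were Cldn16, a claudin of magnesium transport, with 3.5e-05 and Tmem207 with 0.0366 in the authors' deposited table. In neither list were 13 of the 20, among them Umod, Kcnj1 and Casr, genes of the thick ascending limb named after their values were seen. Slc12a1 and Cldn16 are genes of that segment too, and each was in 1 list. Slc12a1, also named after its values were seen, had a control p-value of 0.0475 in the authors' deposited table and no knockout value. The difference between these groups was not tested.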

How the data were processed

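Libraries were mapped to 4 groups, a ChIP and an input library for each genotype, by their titles. The authors deposited 3 lists of genes with 1 p-value each, and per the file headers each row gives the symbol, the NCBI and Ensembl identifiers and the p-value of 1 gene. Tools listed in the submitters' processing notes, with no role, are Bowtie2, Trimmomatic, FastQC, edgeR and deepTools, and the builds are GRCm38 and mm10. How the p-values were computed, against which library and with what correction, is not given in the sources used here. No interval on the signal can be given, because depth is unknown.

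Sheet names that match the library descriptions tie the first list to the control ChIP and the second to the Foxp1KspKO ChIP, called the control and the knockout library. Members were matched by symbol. Other genes were joined by NCBI number to the RefSeq table of GRCm38.p6, where 2 control and 1 knockout numbers had no entry. The lowest p-value was kept where a number recurred. Deposited p-values are also shown as −log10, and 67.2% of control genes and 61.0% of knockout genes shared theirs with another gene. Distances between genes are to the nearest gene that does not overlap, on either side. Promoter shares use 1 RefSeq promoter per gene. The Benjamini-Hochberg step was tested on simulated data.

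With 1 library per group no replicate check exists, and no p-value was computed beyond a Benjamini-Hochberg adjustment of the deposited ones. The members and gene lists were chosen with earlier results of these data known. Genes named are all members, their nearest neighbours, the 3 genes nearest to the strongest shared member in both p-values, and, of each gene list, the 3 lowest control and 2 lowest knockout p-values; others are said to be chosen after their values were seen. For 1 gene under this rule, values are not reported here. Python 3.11.15, pandas 2.3.3, numpy 2.4.6 and matplotlib 3.10.9 were used.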

Additional observations from a re-analysis of the deposited data

How the results depend on the processing

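Matching by NCBI number left all counts as they were. Ensembl identifiers were known only for the 6 listed members, from the lists themselves, so matching by them could not find an unlisted member. The control list but not the knockout list held 2 members, the same number as in the authors' unique list. With deposited p-values under 0.01 the members listed for both libraries fell from 4 to 2. With p-values under 0.001, 3 members were in the control list, 2 in the knockout list, 2 in both and 0 in the unique list. Benjamini-Hochberg adjustment over all protein-coding genes, with unlisted genes given the highest possible value, kept 5 control members, 3 knockout members and 2 in both. Pou3f4 missed 0.05 in the control library (adjusted p = 0.0617) and Pou3f1 in the knockout library (adjusted p = 0.0978). The median control minus knockout difference of 0.71 on the −log10 scale was 2.19 over the members with p under 0.01 in both lists, Irx3 and Pou3f2, and did not move when the highest p-value of a repeated gene was kept. The background share of 29.0% in the control library was 22.6% over genes in the length classes of the members and 38.8% over genes in their distance class, and that of 20.9% in the knockout library was 19.4% and 23.8%. No paired analysis was possible because each group held 1 library.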

Other observations

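Marker genes of other kidney cells were counted in the same lists, although a ChIP listing does not measure which cells were present. Of 7 proximal tubule markers, 0 were in either list. Of 6 podocyte markers, the control list held 3 and the knockout list 4, of 6 endothelial markers 2 and 1, and of 6 stromal markers 4 and 3, where all protein-coding genes had shares of 29.0% and 20.9%. These counts were not tested against those shares. The listed Irx and Pou3f genes cannot be assigned to a cell type from these data.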
